A study of Mus musculus with 16 samples.

Results

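The proteasome genes described here are the 47 genes whose symbol in the platform's probe table is Psma, Psmb, Psmc, Psmd, Psme, Psmf or Psmg followed by digits, of 17888 symbols in that table. All 47 were among the 17484 genes tested. They comprised 18 core particle genes (Psma1 to Psma8 and Psmb1 to Psmb10), 17 genes of the lid and base (Psmc1 to Psmc6 and 11 Psmd genes) and 12 regulators and assembly factors (Psmd5, Psmd9, Psmd10, Psme1 to Psme4, Psmf1 and Psmg1 to Psmg4). The pseudogene symbols Psmb5-ps and Psmb6-ps and the gene Psmc3ip were left out by the rule.

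The samples were cultures of Ba/F3, a mouse pro-B cell line that needs interleukin-3 to grow, which was present in the medium. Clonal lines, grown out by limiting dilution under G418, carried HA-tagged FOXO3(A3)-ER or FOXO4(A3)-ER from an electroporated pcDNA3 construct. A3 forms of FOXO factors lack the phosphorylation sites through which protein kinase B holds them out of the nucleus, and fusion to an oestrogen receptor domain keeps a factor inactive until 4-hydroxytamoxifen (4-OHT) is added. The 4 groups were the FOXO3 line given 4-OHT for 2 h, the FOXO3 line for 8 h, the FOXO4 line for 2 h and the FOXO4 line for 8 h, with 4 arrays each. Each array set a treated culture against a pool of the same line's time 0 cells. Neither fusion-free cells nor cells grown on for 2 h or 8 h without the drug were among the arrays, so 4-OHT itself and time in culture cannot be told apart from the fusion's activity. The sources used here do not say how many clones make up each line.

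The 26S proteasome is the main protease for proteins tagged with ubiquitin. Its core is a barrel of alpha rings outside and beta rings inside, and the beta rings hold the peptide-cutting sites. A base of ATPases unfolds the substrate, a lid removes the ubiquitin, and dedicated chaperones put core and base together. In blood cells part of the constitutive cutting subunits (Psmb5, Psmb6 and Psmb7) is replaced by the immune forms Psmb8, Psmb9 and Psmb10, which change the peptides made for MHC class I molecules. Forkhead factors of the FOXO family have been linked in muscle to the ubiquitin and proteasome system.

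Each value is a log2 ratio, treated culture over time 0 pool of that line, so 0 is no difference, and an error given as SE is that of the limma fit. A gene is called higher or lower where its Benjamini-Hochberg adjusted p over all 17484 genes was under 0.05 in that fit, and "rose" and "fell" are used of called genes. The pool is 1 control sample per line, so a call against time 0 leaves out the spread between time 0 cultures. The study's design calls the 4 samples of a time point independent without saying what separates them, so the p-values measure only the spread between these arrays. A lower ratio in a bulk sample cannot tell fewer cells carrying the transcript apart from less transcript per cell.

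Median spot signals lay between 94.8 and 169 in a channel, where median background lay between 38 and 45, and 30.4% to 42.3% of gene probes exceeded the 95th percentile of the undetected external control spots; a probe below that level is called dim. Treated RNA was labelled with Cy5 on 2 arrays of each group (replicates 2 and 4) and with Cy3 on the other 2. Over all genes, log2 ratios of arrays of 1 group correlated at 0.80 to 0.93 when the dye was the same and at -0.59 to 0.41 when it was opposite, and at 0.25 to 0.90 once the dye term of the fit was taken out. A single array's value therefore mixes treatment and dye, and each result rests on both orientations together. Of 11 B lineage markers tested, 10 were dim on at least 15 of 16 arrays in both channels and Cd79b was not, being above that level on all 16; none of the 11 was called against time 0. Of 12 mast cell and myeloid markers, Gata2 and Prtn3 were lower in both lines at 8 h. Prtn3 was dim on 13 of 16 arrays in the time 0 channel and on 15 in the treated channel. Of 8 T, natural killer and erythroid markers, 2 were higher and 1 lower in FOXO3 cells at 8 h, and 1 and 1 in FOXO4 cells. Among them Hba-a1 rose by 1.76 in FOXO3 cells and 0.34 in FOXO4 cells, while Gata1 fell by 0.15 and 0.48. The part of these changes in the proteasome results was not tested. Among 6 genes that Ba/F3 cells need for interleukin-3 signalling or are known to carry, 3 were higher and 1 lower in FOXO3 cells at 8 h and 2 higher and 1 lower in FOXO4 cells. Jak2 (1.28 and 0.90) and Ptprc (1.25 and 0.76) rose in both lines and Stat5b (0.70) in FOXO3 cells. Stat5a fell by 0.32 in FOXO3 cells and Csf2rb2 by 0.46 in FOXO4 cells. Stat5a was dim on 12 of 16 arrays in the time 0 channel and on 14 in the treated channel, and Csf2rb on 16 and 15. Beside these marker counts, 15.4% of all genes were called higher and 15.1% lower in FOXO3 cells at 8 h. In FOXO4 cells it was 9.71% and 8.75%. Of genes above the control spots, in a separate fit restricted to them, it was 27.2% and 29.4%, and 19.5% and 18.7%.

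At 8 h the proteasome genes split into parts that fell and parts that rose. The 4 core assembly chaperones, the 3 immune cutting subunits, 5 of 8 alpha genes and the activator Psme3 were lower in FOXO3 cells. The activator Psme4, the ubiquitin receptor Psmd4, the lid subunit Psmd8 and the base chaperone Psmd10 were higher. In FOXO3 cells at 8 h, 9 of the 47 genes were called higher and 20 lower against time 0, where 30.5% of all genes tested were called (15.4% higher and 15.1% lower). In FOXO4 cells at 8 h, 5 were higher and 14 lower, where 18.5% of all genes were called (9.71% higher and 8.75% lower). The median log2 ratio over the 47 genes was -0.08 in FOXO3 cells and -0.03 in FOXO4 cells at 8 h, with medians over all genes of -0.0023 and -0.011; with median centring the FOXO4 median of the 47 was above 0. With external control centring the split was 4 higher and 20 lower in FOXO3 cells and 1 and 11 in FOXO4 cells. With median centring it was 6 and 20 in FOXO3 cells and 6 and 8 in FOXO4 cells.

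Bright genes were called more often, and all 47 proteasome genes passed a filter at the control spots. When the test was restricted to the 8619 genes above the control spots, 56.6% of them were called in FOXO3 cells at 8 h (27.2% higher and 29.4% lower), and of the 47 proteasome genes 19.1% were called higher and 44.7% lower. The corresponding background in FOXO4 cells at 8 h was 38.1% (19.5% higher and 18.7% lower), with 12.8% of the 47 higher and 29.8% lower. In either direction 63.8% and 42.6% of the proteasome genes were called in FOXO3 and FOXO4 cells under that filter, near the background, so how many were called is no result about them.

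**Figure D1:**
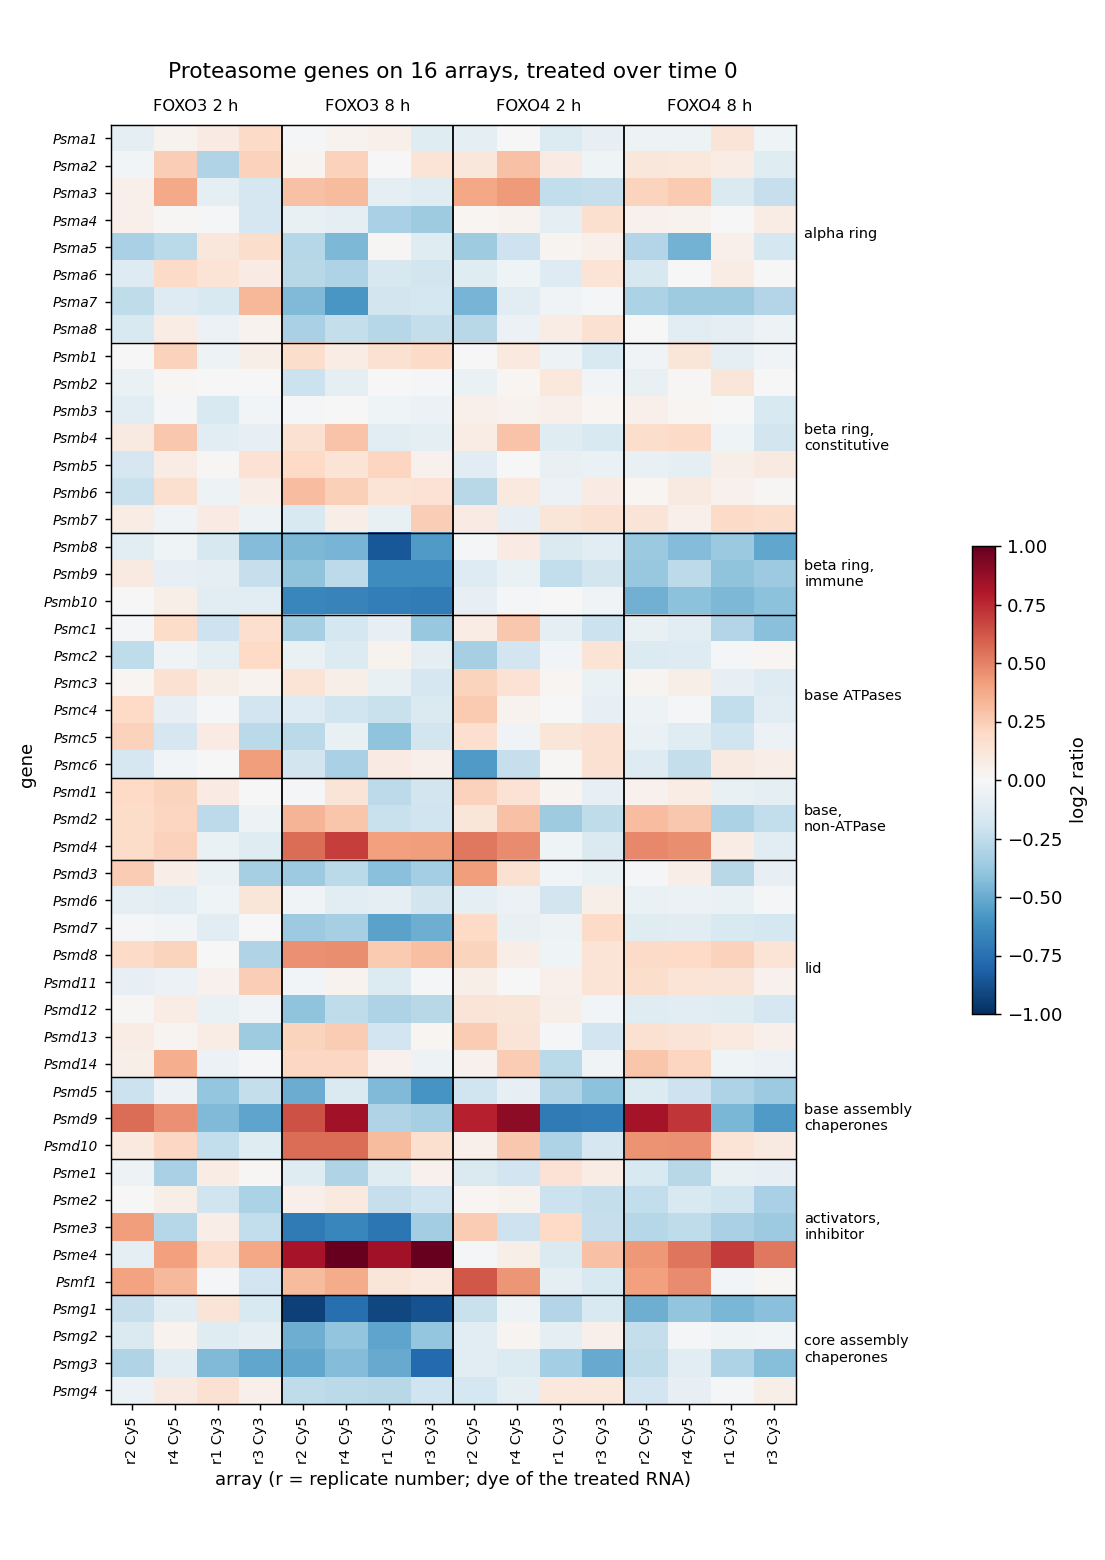
Log2 ratio of treated over time 0 for the 47 proteasome genes (rows, by part of the complex) on the 16 arrays (columns, by group, with the replicate number and the dye of the treated RNA), with colours capped at 1 in either direction. The immune beta subunits and Psmg1 are blue on all 4 arrays of both 8 h groups and Psme4 is red there, while Psmd9 changes colour with the dye.

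**Figure D2:**
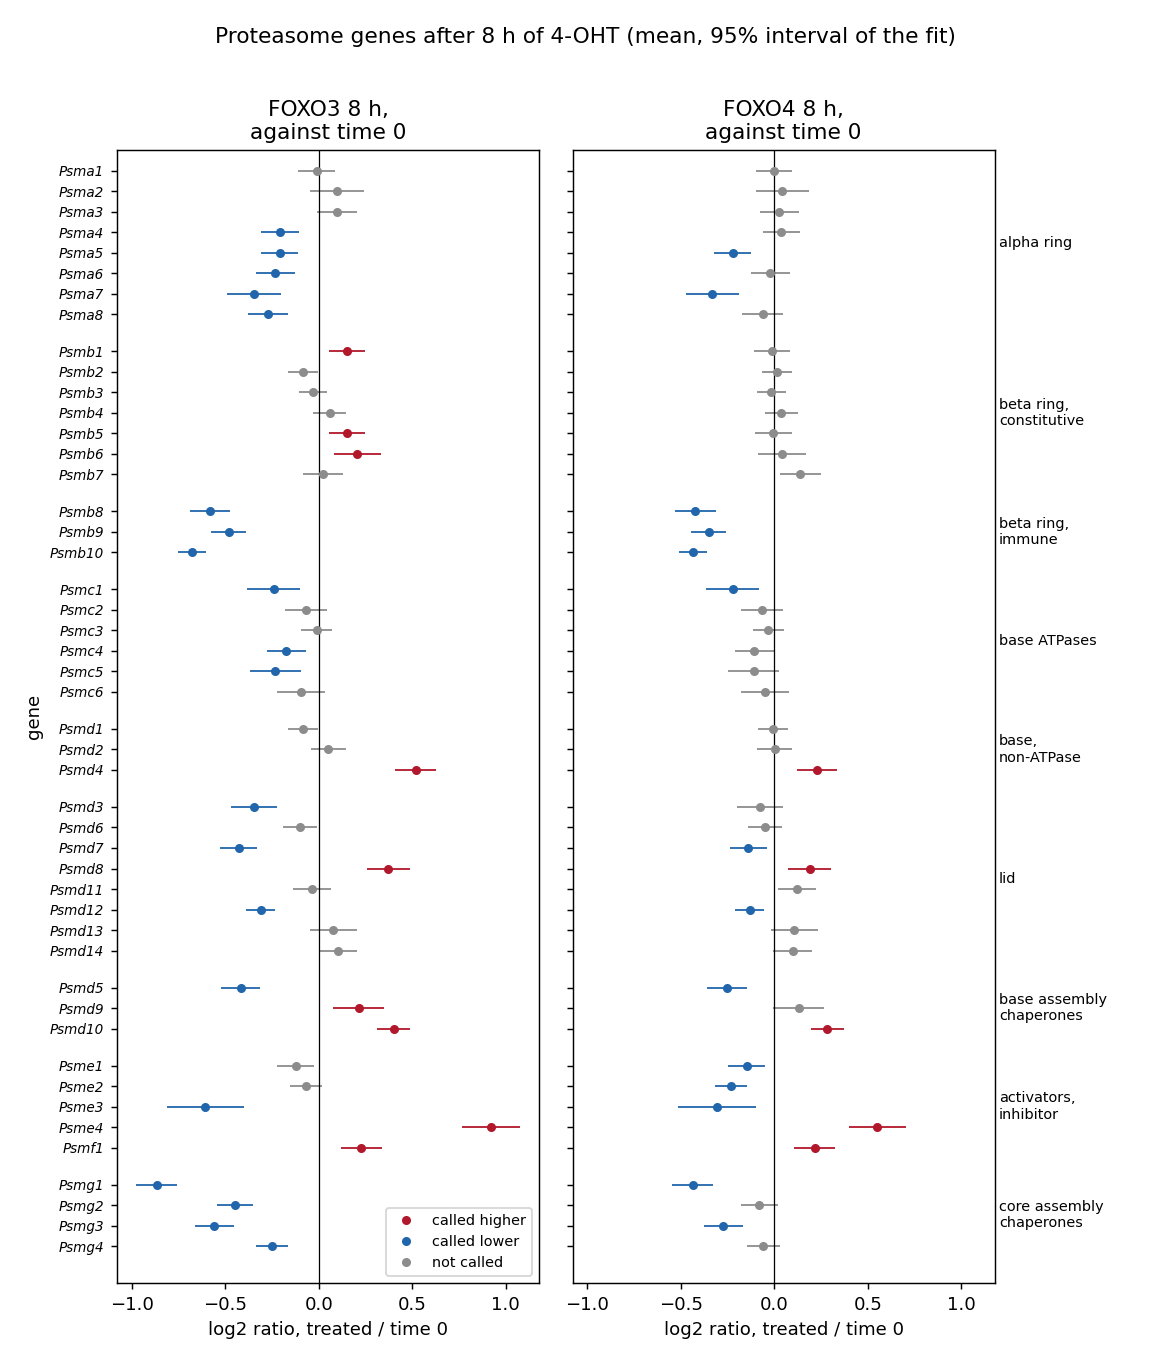
Log2 ratio at 8 h against time 0 of each proteasome gene (rows, by part of the complex) in FOXO3 cells (left) and FOXO4 cells (right); points are the mean of 4 arrays and bars the 95% interval of the limma fit. Red points were called higher (9 in FOXO3 and 5 in FOXO4 cells) and blue points lower (20 and 14).

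The called genes overlapped between the lines, whose time 0 pools were separate. Of the 20 genes that fell in FOXO3 cells at 8 h, 12 (60.0%) were among the 14 that fell in FOXO4 cells, of which they made up 85.7%. All 5 genes that rose in FOXO4 cells were among the 9 that rose in FOXO3 cells (55.6% of those). Over all genes tested the corresponding shares were 51.5% and 88.8% for lower genes and 56.8% and 90.0% for higher genes. No proteasome gene was called in opposite directions in the 2 lines.

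The lowest ratios in the core particle were those of the immune cutting subunits. Psmb10, which replaces Psmb7, was -0.69, -0.65, -0.70 and -0.67 on the 4 FOXO3 arrays at 8 h and -0.45, -0.48, -0.41 and -0.41 on the 4 FOXO4 arrays at 8 h. Psmb8, which replaces Psmb5, was -0.85, -0.45, -0.57 and -0.47 in FOXO3 cells and -0.37, -0.37, -0.52 and -0.43 in FOXO4 cells. Psmb9, which replaces Psmb6, was -0.63, -0.40, -0.63 and -0.26 in FOXO3 cells and -0.40, -0.38, -0.36 and -0.27 in FOXO4 cells. All 24 of these values lie below 0, whichever dye carried the treated RNA. In the fit Psmb10 fell 1.60-fold in FOXO3 cells (log2 -0.68, SE 0.04, adjusted p = 2.13e-11) and 1.35-fold in FOXO4 cells (-0.44, SE 0.04, adjusted p = 3.02e-08). Psmb8 fell 1.50-fold (-0.58, SE 0.05, adjusted p = 2.44e-08) and 1.34-fold (-0.42, SE 0.05, adjusted p = 4.87e-06), and Psmb9 fell 1.40-fold (-0.48, SE 0.04, adjusted p = 4.75e-08) and 1.28-fold (-0.35, SE 0.04, adjusted p = 8.50e-06). Psmb9 has 3 probes, and the value is that of the brightest; the other 2 were dim on all 16 arrays and read -0.04 and -0.16 in FOXO3 cells and -0.0058 and -0.16 in FOXO4 cells at 8 h, none of them called.

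Their constitutive counterparts were not called lower in either line. Psmb5 was 0.22, 0.20, 0.05 and 0.14 on the FOXO3 arrays at 8 h and 0.06, -0.08, 0.09 and -0.09 on the FOXO4 arrays. Psmb6 was 0.14, 0.31, 0.15 and 0.24 in FOXO3 cells and 0.04, 0.02, 0.01 and 0.09 in FOXO4 cells, and Psmb7 was -0.07, -0.15, 0.25 and 0.07 in FOXO3 cells and 0.19, 0.13, 0.18 and 0.05 in FOXO4 cells. The 3 genes stayed within 0.31 of 0 on every 8 h array. In FOXO3 cells Psmb5 (0.15, SE 0.05, adjusted p = 0.0178) and Psmb6 (0.21, SE 0.06, adjusted p = 0.0118) were called higher, as was Psmb1, a structural beta subunit (0.15, SE 0.05, adjusted p = 0.0166), but none of these 3 calls held when arrays were centred on the median or on the external control spots in place of loess. In FOXO4 cells none of the 7 constitutive beta genes was called, and their log2 ratios ran between -0.02 and 0.14. The pseudogene symbol Psmb5-ps, which the rule left out, read 0.20 in FOXO3 cells (adjusted p = 0.000267) and 0.10 in FOXO4 cells at 8 h; its sequence is close to that of Psmb5, and cross-hybridisation between the probes was not tested.

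Array by array, the ratio of each immune subunit minus that of its counterpart was below 0 on 4 of 4 arrays in both lines at 8 h. For Psmb8 minus Psmb5 it was -0.73 ± 0.22 in FOXO3 cells and -0.42 ± 0.14 in FOXO4 cells (SD, n = 4 arrays each). Psmb9 minus Psmb6 was -0.69 ± 0.13 in FOXO3 cells and -0.39 ± 0.04 in FOXO4 cells, and Psmb10 minus Psmb7 was -0.70 ± 0.19 and -0.58 ± 0.08. These are differences of 2 log2 ratios, not of levels. At 2 h the same differences crossed 0 between arrays in both lines, with means from -0.20 to 0.02.

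**Figure D3:**
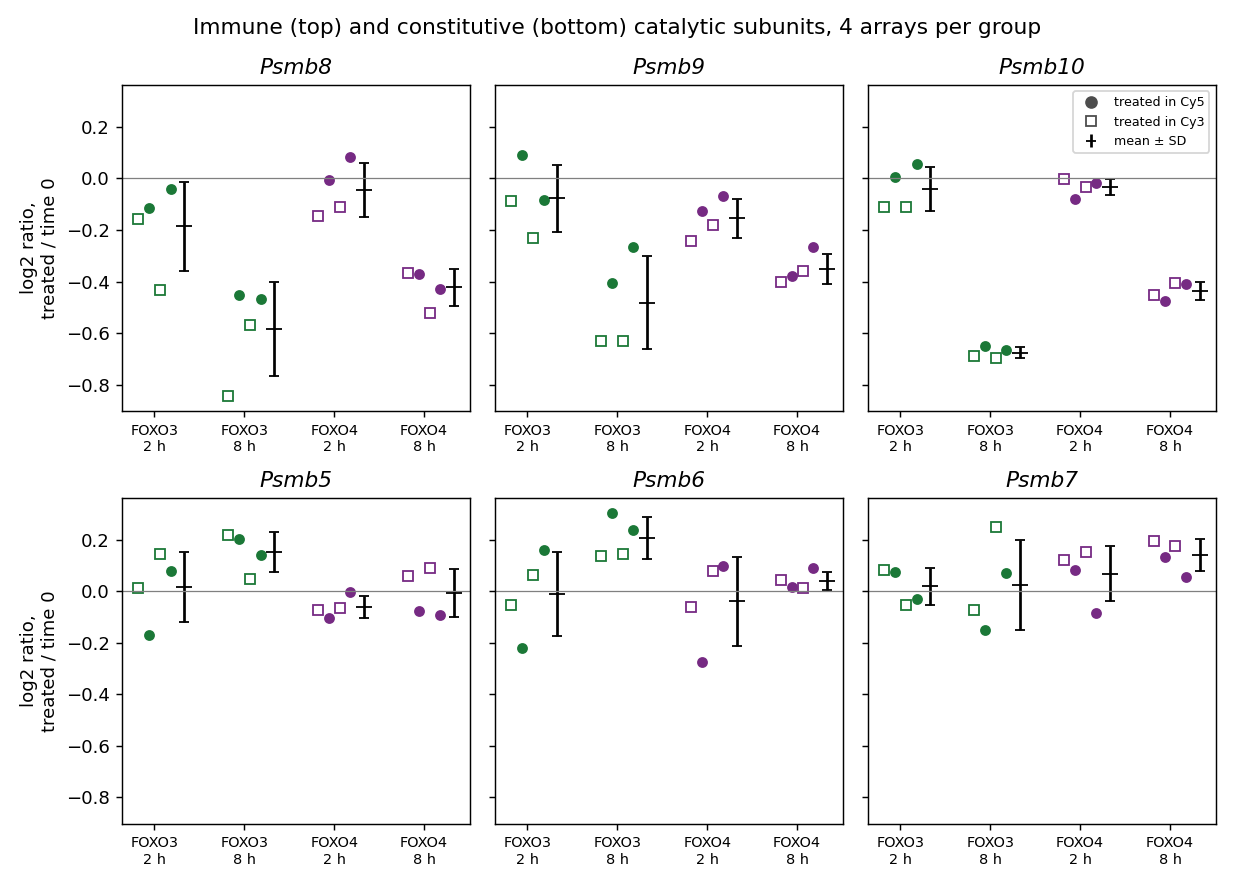
Log2 ratio of treated over time 0 on each array for the immune subunits Psmb8, Psmb9 and Psmb10 (top) and the constitutive subunits Psmb5, Psmb6 and Psmb7 (bottom) in the 4 groups; filled circles mark treated RNA in Cy5, open squares in Cy3, and black bars the mean ± SD of 4 arrays. The immune subunits lie between -0.85 and -0.26 on the 8 h arrays of both lines, and the constitutive ones between -0.15 and 0.31.

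Promoter sequence is shown for 5 of these 6 genes, and for the gene with the highest and the gene with the lowest value at 8 h, Psme4 and Psmg1, to set the immune subunits beside their counterparts and the extremes beside both. Each is the 250 bases upstream of the gene's start in RefSeq's annotation of GRCm38.p6, written 5′ to 3′ on the gene's strand. Capitals mark matches, on either strand, to 1 of 3 motifs searched: GTAAACA, the forkhead motif; TGACNNNGC, the core of the antioxidant response element that Nfe2l1 and Nfe2l2 bind; and CCAAT, the box that NF-Y binds.
Psmb8 (chr17:34197945-34198194, plus strand): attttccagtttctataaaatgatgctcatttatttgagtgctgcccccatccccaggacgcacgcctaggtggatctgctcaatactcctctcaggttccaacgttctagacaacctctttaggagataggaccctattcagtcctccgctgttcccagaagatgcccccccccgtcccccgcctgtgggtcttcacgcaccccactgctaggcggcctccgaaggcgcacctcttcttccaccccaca
Psmb9 (chr17:34187331-34187580, minus strand): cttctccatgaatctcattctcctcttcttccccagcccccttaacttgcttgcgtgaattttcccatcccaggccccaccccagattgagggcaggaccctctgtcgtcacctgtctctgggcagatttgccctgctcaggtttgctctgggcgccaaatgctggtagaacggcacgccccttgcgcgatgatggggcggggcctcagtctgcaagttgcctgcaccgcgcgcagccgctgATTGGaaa
Psmb10 (chr8:105938393-105938642, minus strand): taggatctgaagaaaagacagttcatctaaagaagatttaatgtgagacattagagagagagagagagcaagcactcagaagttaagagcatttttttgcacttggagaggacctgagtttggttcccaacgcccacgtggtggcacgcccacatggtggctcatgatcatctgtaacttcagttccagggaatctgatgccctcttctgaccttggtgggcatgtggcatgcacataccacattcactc
Psmb5 (chr14:54617996-54618245, minus strand): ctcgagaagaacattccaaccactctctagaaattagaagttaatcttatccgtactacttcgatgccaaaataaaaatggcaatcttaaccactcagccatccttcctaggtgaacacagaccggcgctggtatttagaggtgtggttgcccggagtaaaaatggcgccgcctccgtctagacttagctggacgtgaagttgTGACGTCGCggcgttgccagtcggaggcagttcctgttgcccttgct
Psmb6 (chr11:70525107-70525356, plus strand): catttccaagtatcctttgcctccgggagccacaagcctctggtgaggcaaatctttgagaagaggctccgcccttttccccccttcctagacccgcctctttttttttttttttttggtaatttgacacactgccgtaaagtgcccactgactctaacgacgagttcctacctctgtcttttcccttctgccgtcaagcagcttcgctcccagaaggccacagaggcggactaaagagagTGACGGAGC
Psme4 (chr11:30771525-30771774, plus strand): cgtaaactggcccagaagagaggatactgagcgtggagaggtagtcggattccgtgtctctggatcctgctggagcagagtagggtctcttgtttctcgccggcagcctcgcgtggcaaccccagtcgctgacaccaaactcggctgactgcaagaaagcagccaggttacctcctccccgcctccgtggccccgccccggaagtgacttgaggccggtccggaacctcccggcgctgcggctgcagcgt
Psmg1 (chr16:95990961-95991210, minus strand): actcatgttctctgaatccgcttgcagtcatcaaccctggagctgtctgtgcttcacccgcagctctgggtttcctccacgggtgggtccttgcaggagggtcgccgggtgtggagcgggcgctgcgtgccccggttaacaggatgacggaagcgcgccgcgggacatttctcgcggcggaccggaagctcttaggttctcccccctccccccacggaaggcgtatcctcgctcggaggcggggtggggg
The antioxidant core is present in the windows of Psmb5 and Psmb6, and in those of Psmb8, Psmb9, Psmb10, Psme4 and Psmg1 it is not. Of the 39 proteasome genes with a window in the table, 5 hold it (Psmb5, Psmb6, Psmc6, Psmd9 and Psmd12), 12.8% against 11.5% of all 27025 genes with a window. CCAAT is in 13 of the 39 (33.3%, against 37.5% of all), among them Psmb9, where the match is on the opposite strand, Psmd4, Psmd10 and Psme3. GTAAACA is in 0 of the 39, against 3.54% of all windows. No window held matches to more than 1 of the 3 motifs, and a match is a description of the letters only.

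The alpha ring, through whose outer gate substrates enter, fell in part. In FOXO3 cells at 8 h, 5 of 8 alpha genes were called lower and none higher: Psma7 (-0.35, SE 0.07, adjusted p = 0.000448), Psma8 (-0.27), Psma6 (-0.23), Psma4 (-0.21) and Psma5 (-0.21). In FOXO4 cells at 8 h only Psma7 (-0.33, SE 0.07, adjusted p = 0.00133) and Psma5 (-0.22, SE 0.05, adjusted p = 0.00172) were called of the 8, both lower. Beside these counts, 15.1% of all genes were called lower in FOXO3 cells and 8.75% in FOXO4 cells. Of genes above the control spots it was 29.4% and 18.7%, in the fit restricted to them. Psma5 averaged -0.36 with the treated RNA in Cy5 and -0.05 with it in Cy3 in FOXO3 cells, and -0.38 and -0.06 in FOXO4 cells; its call was lost without the dye term in both lines, and with median centring in FOXO4 cells. Psma7 was -0.19, -0.44, -0.18 and -0.58 on the FOXO3 arrays and -0.36, -0.32, -0.29 and -0.36 on the FOXO4 arrays. The spread between FOXO3 arrays followed the dye: the Cy5 arrays, replicates 2 and 4, gave the lower pair. Psma8 encodes an alpha subunit known from testis; its probe was dim in the treated channel of 3 arrays and read -0.29, -0.32, -0.24 and -0.24 in FOXO3 cells and -0.09, 0.0036, -0.05 and -0.11 in FOXO4 cells. Psma1, Psma2 and Psma3 were not called in any comparison against time 0. The constitutive structural subunits Psmb2, Psmb3 and Psmb4 were likewise not called.

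In the base, the 6 ATPases that unfold substrates and open the gate all had ratios below 0 at 8 h in both lines, by small amounts, though with median centring Psmc2, Psmc3 and Psmc6 were above 0 in FOXO4 cells. Psmc1 (-0.24, SE 0.07, adjusted p = 0.00875), Psmc5 (-0.23, SE 0.07, adjusted p = 0.00923) and Psmc4 (-0.17, SE 0.05, adjusted p = 0.0113) were called lower in FOXO3 cells. The calls of Psmc1 and Psmc4 were lost without the dye term, and each of the 3 without some FOXO3 8 h array: Psmc1 without replicate 2, Psmc4 without replicate 4, and Psmc5 without replicate 1 or 2. Psmc1 was called in FOXO4 cells (-0.22, SE 0.07, adjusted p = 0.0257), where the call was lost under median centring, with the authors' values and without the dye term. Psmc2, Psmc3 and Psmc6 were not called in either line, with values from -0.10 to -0.01 in FOXO3 cells. Psmc4 has 3 probes, which read -0.17, -0.22 and -0.09 in FOXO3 cells and -0.11, -0.18 and -0.06 in FOXO4 cells at 8 h. The call given above is that of the first, the brightest. The second, above the control spots on all 16 arrays, was called lower in both lines. The third was above them on 5 arrays and was called in neither line.

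Of the 3 non-ATPase base subunits, Psmd4 rose. Psmd4, which binds ubiquitin chains and hands substrates to the complex, was 0.41, 0.56, 0.42 and 0.69 on the FOXO3 arrays at 8 h and 0.07, 0.48, -0.11 and 0.46 on the FOXO4 arrays. All FOXO3 arrays were above 0.4, and on the FOXO4 arrays the value was high only where the treated RNA was in Cy5. It rose 1.43-fold in FOXO3 cells (0.52, SE 0.05, adjusted p = 1.33e-07) and 1.17-fold in FOXO4 cells (0.23, SE 0.05, adjusted p = 0.0032), and the FOXO4 call was lost with external control centring, with the mean of both probes and without the dye term. Its second probe, dim on all 16 arrays, read 0.22 in FOXO3 cells (called higher) and 0.03 in FOXO4 cells. Psmd1 and Psmd2, the scaffold subunits of the base, were not called at 8 h, at -0.08 and 0.05 in FOXO3 cells and -0.01 and 0.0027 in FOXO4 cells.

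Lid genes went both ways. Psmd7, the partner of the deubiquitinase Psmd14, was -0.54, -0.36, -0.48 and -0.33 on the FOXO3 arrays at 8 h and -0.15, -0.12, -0.17 and -0.11 on the FOXO4 arrays. Psmd12 was -0.31, -0.40, -0.27 and -0.25 in FOXO3 cells and -0.12, -0.12, -0.17 and -0.12 in FOXO4 cells, and Psmd3 was -0.42, -0.37, -0.34 and -0.27 in FOXO3 cells and -0.28, -0.02, -0.08 and 0.06 in FOXO4 cells. Psmd8, another scaffold of the lid, was 0.26, 0.46, 0.30 and 0.46 in FOXO3 cells and 0.23, 0.19, 0.14 and 0.20 in FOXO4 cells. The first 2 lay below 0 and the last above 0 on every 8 h array, and Psmd3 did so only in FOXO3 cells. In FOXO3 cells Psmd7 fell 1.35-fold (-0.43, SE 0.05, adjusted p = 4.77e-07), Psmd3 1.27-fold (-0.35, SE 0.06, adjusted p = 8.06e-05) and Psmd12 1.24-fold (-0.31, SE 0.04, adjusted p = 1.32e-06), and Psmd8 rose 1.29-fold (0.37, SE 0.05, adjusted p = 1.93e-05). In FOXO4 cells Psmd7 (-0.14, adjusted p = 0.0453), Psmd12 (-0.13, adjusted p = 0.015) and Psmd8 (0.19, adjusted p = 0.0192) were called, and each of these 3 calls was lost in at least 3 of the 9 other settings. Psmd6, Psmd11, Psmd13 and Psmd14 were not called in either line.

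The 3 chaperones that guide base assembly differed from one another. Psmd10, also known as gankyrin, was 0.32, 0.56, 0.16 and 0.56 on the FOXO3 arrays at 8 h and 0.14, 0.45, 0.09 and 0.45 on the FOXO4 arrays, above 0 on all 8 and higher with the treated RNA in Cy5. It rose 1.32-fold in FOXO3 cells (0.40, SE 0.04, adjusted p = 3.41e-07) and 1.22-fold in FOXO4 cells (0.28, SE 0.04, adjusted p = 6.21e-05), a FOXO4 call that external control centring and the fit without the dye term did not keep. Psmd5 was -0.44, -0.49, -0.59 and -0.14 on the FOXO3 arrays and -0.31, -0.14, -0.36 and -0.21 on the FOXO4 arrays at 8 h, below 0 throughout. It fell 1.34-fold in FOXO3 cells (-0.42, SE 0.05, adjusted p = 1.50e-06) and 1.19-fold in FOXO4 cells (-0.25, SE 0.05, adjusted p = 0.000919). Psmd9 was dim in the treated channel of 10 arrays and in the time 0 channel of 14. It read 0.64 and 0.84 with the treated RNA in Cy5 and -0.30 and -0.33 with it in Cy3 in FOXO3 cells at 8 h, so its sign followed the dye, and its call in FOXO3 cells (0.21, SE 0.06, adjusted p = 0.0162) was lost without the dye term and with external control centring.

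All 4 chaperones of core assembly fell in FOXO3 cells at 8 h. Psmg1 and Psmg2 pair to seat the alpha subunits into a ring, and Psmg3 and Psmg4 form a second pair that acts on the same ring. Psmg1 was -0.91, -0.93, -0.87 and -0.76 on the FOXO3 arrays at 8 h and -0.45, -0.49, -0.42 and -0.39 on the FOXO4 arrays. Psmg2 was -0.53, -0.49, -0.39 and -0.39 in FOXO3 cells and -0.05, -0.24, -0.03 and -0.01 in FOXO4 cells. The FOXO3 and FOXO4 arrays did not overlap for either gene, and of the FOXO4 values of Psmg2 only replicate 2 stood clearly below 0. Psmg1 had the lowest ratio of the 47 genes in both lines, with a fall of 1.82-fold in FOXO3 cells (-0.87, SE 0.05, adjusted p = 1.37e-10) and 1.35-fold in FOXO4 cells (-0.44, SE 0.05, adjusted p = 4.07e-06). Psmg2 fell 1.36-fold in FOXO3 cells (-0.45, SE 0.05, adjusted p = 2.11e-07) and was not called in FOXO4 cells.

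The second pair showed the same contrast between the lines in a smaller form. Psmg3 was -0.50, -0.52, -0.78 and -0.43 on the FOXO3 arrays at 8 h and -0.31, -0.25, -0.43 and -0.11 on the FOXO4 arrays. Psmg4 was -0.27, -0.26, -0.20 and -0.27 in FOXO3 cells and -0.02, -0.19, 0.06 and -0.08 in FOXO4 cells. Psmg3 was below 0 on all 8 of these arrays and Psmg4 on the FOXO3 arrays. Psmg3 fell 1.47-fold in FOXO3 cells (-0.56, SE 0.05, adjusted p = 2.43e-08) and 1.21-fold in FOXO4 cells (-0.27, SE 0.05, adjusted p = 0.000379), and Psmg4 fell 1.19-fold in FOXO3 cells (-0.25, SE 0.04, adjusted p = 7.70e-05). Pomp, a further factor of core assembly outside the Psmg family, was not called in any comparison against time 0, at 0.03 in FOXO3 cells and 0.06 in FOXO4 cells at 8 h.

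The activators that can cap the core in place of the lid and base parted most widely. Psme4, a large nuclear activator known for degradation that does not need ubiquitin, was 0.84, 0.82, 0.99 and 1.03 on the FOXO3 arrays at 8 h and 0.70, 0.43, 0.53 and 0.54 on the FOXO4 arrays. Psme3, the nuclear member of the other activator family, was -0.72, -0.71, -0.35 and -0.65 in FOXO3 cells and -0.33, -0.28, -0.36 and -0.26 in FOXO4 cells. The 2 genes lay on opposite sides of 0 on every 8 h array. Psme4 rose 1.89-fold in FOXO3 cells (0.92, SE 0.07, adjusted p = 5.74e-09) and 1.46-fold in FOXO4 cells (0.55, SE 0.07, adjusted p = 1.41e-05), the highest ratio of the 47 genes in both. Its 3 probes read 0.92, 0.86 and 0.48 in FOXO3 cells and 0.55, 0.50 and 0.33 in FOXO4 cells, all called higher. The third probe was above the control spots on only 5 of 16 arrays. Psme3 fell 1.52-fold in FOXO3 cells (-0.61, SE 0.10, adjusted p = 5.67e-05); the FOXO4 value (-0.31, SE 0.10, adjusted p = 0.0345) lost its call under median centring and without the dye term.

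Psme1 and Psme2, which form the interferon-induced cytoplasmic activator, were called lower in FOXO4 cells but not in FOXO3 cells. Psme2 was -0.23, 0.05, -0.20 and 0.10 on the FOXO3 arrays and -0.20, -0.25, -0.33 and -0.15 on the FOXO4 arrays at 8 h. The FOXO3 values were above 0 where the treated RNA was in Cy5, and all FOXO4 values were below 0. In FOXO4 cells Psme2 fell 1.17-fold (-0.23, SE 0.04, adjusted p = 0.000357), a call lost without the dye term. Psme1 fell 1.11-fold there (-0.15, SE 0.05, adjusted p = 0.0325), a call that 4 of 9 other settings did not keep. Psme1 has 3 probes, each above the control spots on all 16 arrays. They read -0.15, -0.17 and -0.05 in FOXO4 cells at 8 h, and the last was not called. The difference between the lines was not called for Psme2 (FOXO3 minus FOXO4 0.16, 95% interval 0.04 to 0.29, adjusted p = 0.0937). Psmf1, an inhibitor of the core in vitro, was 0.12, 0.32, 0.10 and 0.37 on the FOXO3 arrays and -0.03, 0.41, 0.01 and 0.47 on the FOXO4 arrays, higher with the treated RNA in Cy5. It was called higher in both (0.23, adjusted p = 0.00192, and 0.22, adjusted p = 0.00536), and both calls were lost with external control centring and without the dye term.

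**Figure D4:**
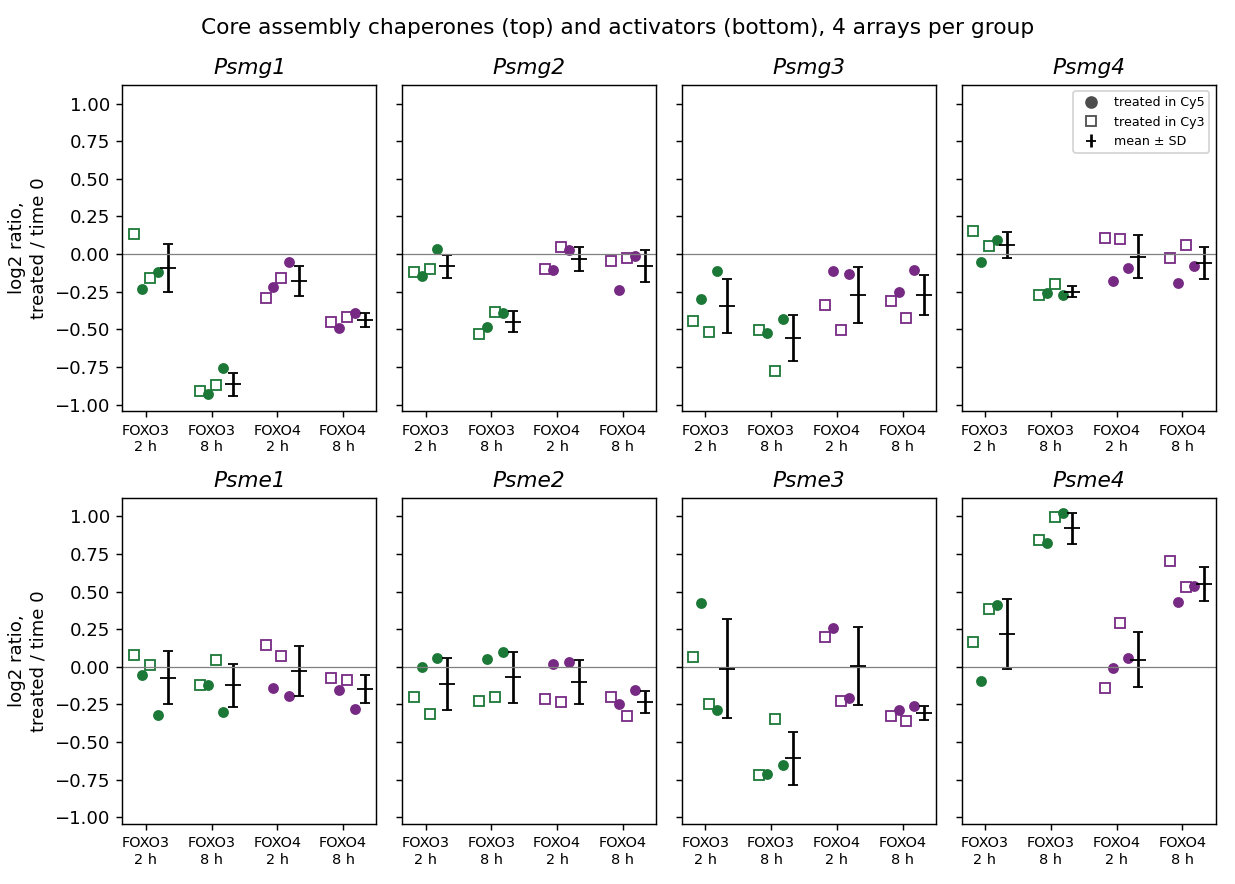
Log2 ratio of treated over time 0 on each array for the core assembly chaperones Psmg1 to Psmg4 (top) and the activators Psme1 to Psme4 (bottom) in the 4 groups; filled circles mark treated RNA in Cy5, open squares in Cy3, and black bars the mean ± SD of 4 arrays. Psmg1 lies between -0.93 and -0.76 in FOXO3 cells at 8 h and Psme4 between 0.82 and 1.03, with the FOXO4 cells at 8 h nearer to 0 in both.

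After 2 h few proteasome genes were called. In FOXO3 cells 1 gene was higher and 3 lower, where 7.80% of all genes were called (3.47% higher and 4.34% lower). In the separate fit to genes above the control spots, 2 proteasome genes were higher and 3 lower, where 17.3% were called (7.92% and 9.40%). In FOXO4 cells 2 were higher and 4 lower, where 8.80% were called (3.39% higher and 5.41% lower). In the separate fit 2 were higher and 4 lower too, where 20.4% were called (8.21% and 12.2%). In the fit over all genes the split moved with the centring. In FOXO3 cells it was 0 higher and 2 lower with median centring and 0 and 1 with external control centring. In FOXO4 cells it was 0 and 2, and 0 and 4. The core chaperone Psmg3 was lower in both lines, at -0.44, -0.30, -0.52 and -0.11 in FOXO3 cells (-0.34, SE 0.05, adjusted p = 0.000109) and -0.34, -0.11, -0.50 and -0.13 in FOXO4 cells (-0.27, SE 0.05, adjusted p = 0.00114). The base chaperone Psmd5 was lower in both as well, at -0.38, -0.21, -0.24 and -0.06 in FOXO3 cells (-0.22, SE 0.05, adjusted p = 0.00685) and -0.30, -0.20, -0.41 and -0.08 in FOXO4 cells (-0.25, SE 0.05, adjusted p = 0.00294). These were the 2 genes called in the same direction in both lines at 2 h. All 16 of their values were below 0, but the rule by which values were printed asks for 1 sign on 4 of 4 arrays. The FOXO3 call of Psmg3 held in every other setting; the FOXO4 calls of both genes were lost without the dye term, as was the FOXO3 call of Psmd5, which was lost also with external control centring and without FOXO3 2 h replicate 1 or 2.

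The other 2 h calls were small, and each was lost in some settings. Psmb8 in FOXO3 cells was -0.16, -0.11, -0.43 and -0.04 (-0.19, SE 0.05, adjusted p = 0.0283), against -0.14, -0.01, -0.11 and 0.08 in FOXO4 cells, where it was not called. Psmb9 in FOXO4 cells was -0.24, -0.13, -0.18 and -0.07 (-0.15, SE 0.04, adjusted p = 0.0359), against -0.09, 0.09, -0.23 and -0.08 in FOXO3 cells, where it was not called. Both calls were lost in at least 3 of 9 other settings, as were those of Psmd1 in FOXO3 cells (0.13, adjusted p = 0.0453), and Psmd4 (0.20, adjusted p = 0.0164) and Psmf1 (0.20, adjusted p = 0.0187) in FOXO4 cells. Psmg1 in FOXO4 cells (-0.18, adjusted p = 0.0384) was lost in 2 of 9 settings and when any of 5 arrays was left out. Psmb10 was not called at 2 h, with values from -0.11 to 0.06 in FOXO3 cells and from -0.08 to -0.0041 in FOXO4 cells, and neither were Psmb5, Psmb6 and Psmb7 in either line. No proteasome gene was called between the lines at 2 h with limma, where 0.0343% of all genes were called (0.0172% in each direction) and 2 of the 47 had an unadjusted p under 0.05.

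Setting 8 h against 2 h within a line cancels the time 0 pool that both share. In FOXO3 cells 4 proteasome genes were higher and 16 lower at 8 h than at 2 h, where 21.8% of all genes were called (11.8% higher and 9.99% lower). In the separate fit to genes above the control spots, 5 proteasome genes were higher and 18 lower, where 43.1% were called (21.9% and 21.2%). In FOXO4 cells 2 were higher and 4 lower, where 10.7% were called (6.74% higher and 3.95% lower). In the separate fit 2 were higher and 6 lower, where 24.1% were called (14.7% and 9.39%). The 8 h arrays lay wholly above the 2 h arrays for 7.71% and wholly below for 6.85% of all genes in FOXO3 cells, and for 4.72% and 2.88% in FOXO4 cells. In the fit over all genes, the FOXO3 split of 4 and 16 was 4 and 11 with median centring and 3 and 10 with external control centring. The FOXO4 split of 2 and 4 was 2 and 1 with median centring and 1 and 1 with external control centring. Psme4 was higher at 8 h in both lines, by 0.70 in FOXO3 cells (SE 0.10, adjusted p = 3.65e-05) and 0.50 in FOXO4 cells (SE 0.10, adjusted p = 0.0027), and the 8 h arrays lay above the 2 h arrays without overlap in each. Psmd10 was higher in both too (0.42, adjusted p = 3.41e-05, and 0.32, adjusted p = 0.0013), with overlap between arrays of different dye. Psmd4 (0.46, adjusted p = 8.24e-05) and Psmd8 (0.34, adjusted p = 0.0025) were higher in FOXO3 cells. The genes lower in FOXO3 cells were the alpha subunits Psma6, Psma7 and Psma8, the 3 immune subunits, Psmc1, Psmd1, Psmd3, Psmd7, Psmd12, Psme3 and Psmg1 to Psmg4. In FOXO3 cells 1 of the 4 higher calls, that of Psme4, and 9 of the 16 lower ones held under every setting and with any array left out; the calls lost under some setting were those of Psmd4, Psmd8, Psmd10, the 3 alpha subunits, Psmc1, Psmd1, Psmd3 and Psmg3. In FOXO4 cells the call of Psme4 held and that of Psmd10 was lost with external control centring and without the dye term.

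Psmb8, Psmb10, Psmg1 and Psmd12 were the genes called lower at 8 h than at 2 h in both lines. In FOXO3 cells Psmg1 fell by 0.77 (SE 0.07, adjusted p = 2.32e-07), Psmb10 by 0.64 (SE 0.05, adjusted p = 2.29e-08), Psme3 by 0.60 (SE 0.14, adjusted p = 0.00335), Psmb9 by 0.41 (SE 0.06, adjusted p = 6.84e-05) and Psmb8 by 0.40 (SE 0.07, adjusted p = 0.000364) between 2 h and 8 h. The 8 h arrays did not overlap with the 2 h arrays for any of these 5 genes. In FOXO4 cells Psmb10 fell by 0.40 (SE 0.05, adjusted p = 2.15e-05), Psmb8 by 0.38 (SE 0.07, adjusted p = 0.00153), Psmg1 by 0.26 (SE 0.07, adjusted p = 0.0296) and Psmd12 by 0.20 (SE 0.05, adjusted p = 0.0152), also without overlap. Of these 4, the call of Psmb10 was the 1 that no setting and no left-out array removed. Psmg3 and Psmd5, which were already lower at 2 h, were not called between 8 h and 2 h in FOXO4 cells. In FOXO3 cells Psmg3 was (-0.22, adjusted p = 0.0302), a call lost in 3 of 10 other settings, and Psmd5 was not.

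Between the lines at 8 h, 11 proteasome genes were called, 2 higher and 9 lower in FOXO3 cells than in FOXO4 cells, where 10.6% of all genes were called (5.37% higher and 5.28% lower). In the separate fit to genes above the control spots, 2 proteasome genes were higher and 11 lower, where 23.3% were called (11.0% and 12.3%). The FOXO3 arrays lay wholly above the FOXO4 arrays for 4.36% and wholly below for 4.75% of all genes. This difference holds the errors of both time 0 pools and of 2 clonal lines, and the sources used here do not give the amount of either fusion protein. The split of 2 and 9 was 0 and 7 with median centring and 0 and 1 with external control centring. All 4 core assembly chaperones were lower in FOXO3 cells: Psmg1 by 0.43 (95% interval of the difference -0.58 to -0.27, adjusted p = 0.000638), Psmg2 by 0.37 (-0.51 to -0.23, adjusted p = 0.000864), Psmg3 by 0.29 (-0.43 to -0.14, adjusted p = 0.0103) and Psmg4 by 0.19 (-0.31 to -0.07, adjusted p = 0.0445). For each of the 4 the FOXO3 and FOXO4 arrays did not overlap. The call of Psmg1 held in every other setting and with any array left out, that of Psmg2 was lost only with external control centring, that of Psmg3 also without the dye term, and that of Psmg4 was lost in 5 of 9 settings.

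Psmd7 (-0.29, adjusted p = 0.00698), Psmd3 (-0.27, adjusted p = 0.0413), Psma4 (-0.25, adjusted p = 0.0224), Psmb10 (-0.24, adjusted p = 0.00352) and Psmd12 (-0.18, adjusted p = 0.0329) were the other genes lower in FOXO3 cells. Psme4 (0.37, 95% interval 0.15 to 0.59, adjusted p = 0.0243) and Psmd4 (0.29, 0.14 to 0.44, adjusted p = 0.0129) were higher. Each of these 7 calls was lost with external control centring, with which the median of all genes was -0.12 in FOXO4 cells at 8 h, against -0.011 with loess. Psmb8 (-0.16, 95% interval -0.31 to -0.01, adjusted p = 0.224), Psmb9 (-0.13, -0.26 to 0.00095, adjusted p = 0.264) and Psme3 (-0.30, -0.59 to -0.01, adjusted p = 0.239) were lower in FOXO3 cells by their means without being called, and their intervals leave room for differences of up to 0.31, 0.26 and 0.59. Psmb5 (0.16, 0.02 to 0.30, adjusted p = 0.182) and Psmb6 (0.17, -0.01 to 0.34, adjusted p = 0.314) were not called either.

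**Figure D5:**
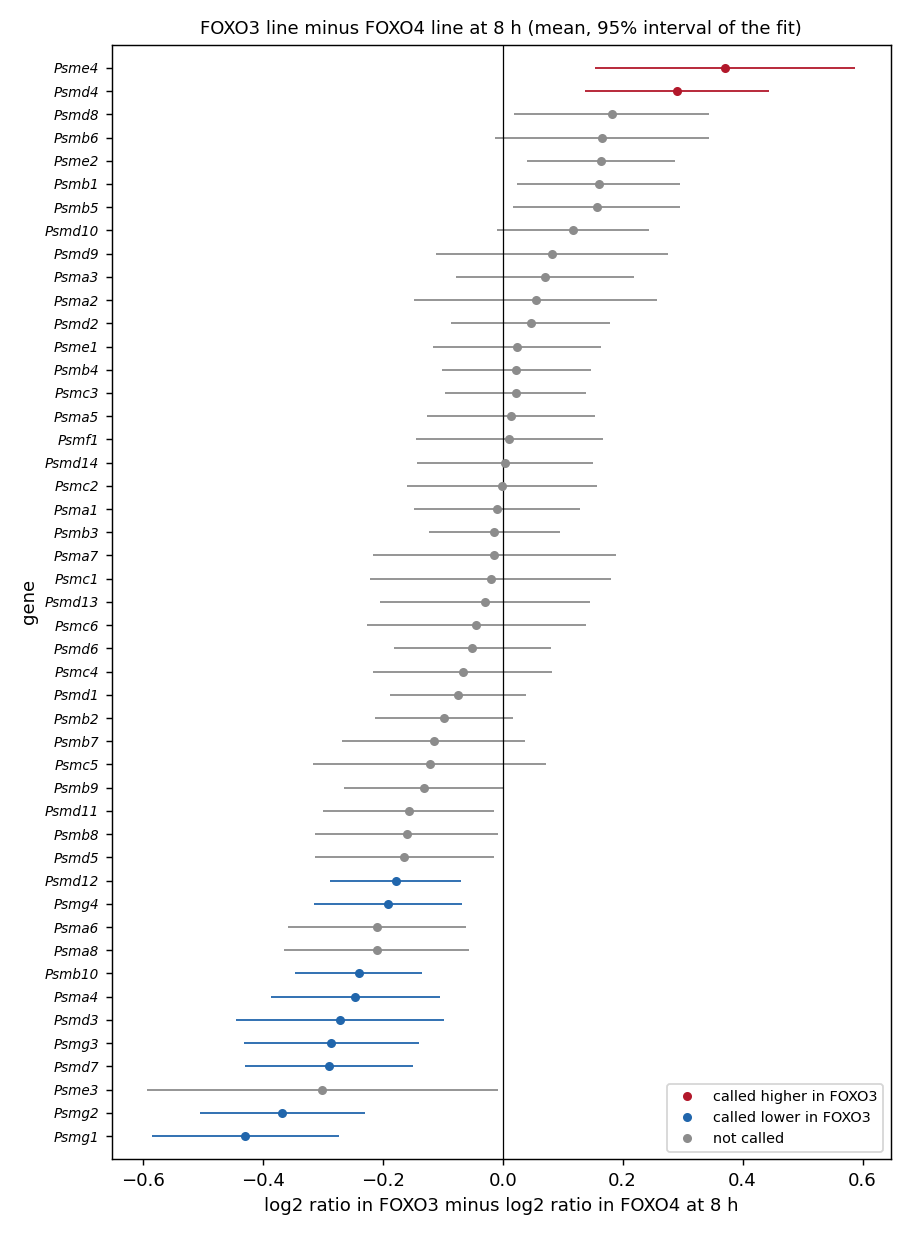
Log2 ratio in FOXO3 cells minus log2 ratio in FOXO4 cells at 8 h for the 47 proteasome genes, ordered by the difference; points are the fitted difference (4 arrays per line) and bars its 95% interval. Psme4 and Psmd4 were called higher in FOXO3 cells (red), and 9 genes, with Psmg1 and Psmg2 lowest, were called lower (blue).

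Of 11 tested genes that act on the proteasome but lie outside the symbol rule, 3 were higher and 4 lower in FOXO3 cells at 8 h, and 3 were higher and 1 lower in FOXO4 cells. For these and the lists that follow, the shares over all genes at 8 h were 15.4% higher and 15.1% lower in FOXO3 cells. In FOXO4 cells they were 9.71% and 8.75%. Among the genes above the control spots, in the separate fit restricted to them, they were 27.2% and 29.4%, and 19.5% and 18.7%. The list counts come from the fit over all genes, and some list genes were dim on every array. No list was tested as a set, so the counts only describe the lists. Zfand5, which binds the 26S particle and is known to raise its activity, was higher in all 4 groups, by 0.49 (SE 0.06, adjusted p = 9.27e-06) and 0.79 (SE 0.06, adjusted p = 1.17e-09) in FOXO3 cells at 2 h and 8 h and by 0.53 (SE 0.06, adjusted p = 4.04e-06) and 0.50 (SE 0.06, adjusted p = 1.62e-06) in FOXO4 cells. Akirin2, which brings proteasomes into the nucleus, rose in both lines at 8 h (0.32, adjusted p = 0.000153, and 0.41, adjusted p = 2.73e-05). In FOXO3 cells its call was lost when the mean of its probes was used. The small lid subunit Sem1 rose as well (0.31, adjusted p = 1.26e-05, and 0.18, adjusted p = 0.00588), though the FOXO4 call was lost with external control centring, without the dye term and without FOXO4 8 h replicate 1. Both deubiquitinases that sit on the base without being part of it fell in FOXO3 cells only by the test against time 0: Usp14 by 0.31 (adjusted p = 5.11e-06) and Uchl5 by 0.36 (adjusted p = 5.87e-06), against -0.05 and -0.10 in FOXO4 cells, and the difference between the lines was called for both (-0.27, adjusted p = 0.00482, and -0.26, adjusted p = 0.0173), though not with external control centring or without the dye term, and for Uchl5 also not without FOXO3 8 h replicate 1 or 3 or FOXO4 8 h replicate 3.

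Among 15 tested factors that control proteasome genes, 8 were higher and 2 lower in FOXO3 cells at 8 h, and 3 were higher and 2 lower in FOXO4 cells, beside the 27.2% higher and 29.4% lower, and 19.5% and 18.7%, of genes above the control spots. Ngly1, the enzyme that strips sugars from Nfe2l1 so that it can act, had the largest change, 2.54-fold in FOXO3 cells (1.34, SE 0.06, adjusted p = 5.51e-12) and 2.13-fold in FOXO4 cells (1.09, SE 0.06, adjusted p = 3.52e-10). Nfe2l1 itself rose by 0.23 in FOXO3 cells (adjusted p = 0.000174), a call lost with external control centring, and read 0.05 in FOXO4 cells. Nfya, a subunit of the CCAAT-binding factor, was lower in all 4 groups, by 0.50 and 0.40 in FOXO3 cells at 2 h and 8 h and by 0.44 and 0.23 in FOXO4 cells, with adjusted p between 6.41e-08 and 0.000201. Stat3 rose in both lines at 8 h (0.46 and 0.36). Tal1, a factor of early blood cells, rose by 0.35 in FOXO3 cells and fell by 0.29 in FOXO4 cells at 8 h, and the difference between the lines was called (0.64, SE 0.07, adjusted p = 1.50e-05). Of 11 tested shuttle and unfolding factors, 5 were higher and 3 lower in FOXO3 cells and 3 and 2 in FOXO4 cells, with Nsfl1c (0.30 and 0.46) higher and Ubqln4 (-0.38 and -0.16) lower in both. The FOXO3 call of Nsfl1c was lost with external control centring, and the FOXO4 call of Ubqln4 with the authors' values, without the dye term and without FOXO4 8 h replicate 1, 2 or 3. Of 7 listed genes for ubiquitin and its activating enzymes 2 were tested, and Uba6 rose by 0.57 in FOXO3 cells at 8 h, a call lost without the dye term.

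Of 11 tested genes of MHC class I antigen processing, which uses peptides from the immune subunits, 3 were higher and 3 lower in FOXO3 cells at 8 h and 2 were higher and 3 lower in FOXO4 cells, beside 27.2% and 29.4%, and 19.5% and 18.7%, of genes above the control spots. Tap1 and Tap2, the peptide transporter into the endoplasmic reticulum, lie with Psmb8 and Psmb9 on chromosome 17 in the order Psmb9, Tap1, Psmb8, Tap2 in the RefSeq table. All 4 were called lower at 8 h: Tap1 by 0.40 in FOXO3 cells (SE 0.05, adjusted p = 2.72e-06) and 0.26 in FOXO4 cells (SE 0.05, adjusted p = 0.000683), and Tap2, whose probe was dim on 9 arrays, by 0.34 and 0.25, both calls lost without the dye term. Psmb10, on chromosome 8, fell by the amounts given above. Calr, a chaperone of class I folding, fell by 0.49 and 0.41, while the class I heavy chain H2-K1 rose by 0.41 (adjusted p = 8.75e-06) and 0.32 (adjusted p = 0.000384) and B2m was not called. Irf1, a known activator of the immune subunit genes, read 0.26 in FOXO3 cells (adjusted p = 0.0021, a call lost with external control centring) and -0.01 in FOXO4 cells at 8 h.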

How the data were processed

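All 16 arrays of 2 colours were read from the scanner files, which per the file headers hold, for either dye, the mean intensity of a spot and the median and SD of the background around it. The authors also deposited normalized intensities and a table of log2 values, which matched the log2 ratio of treated over time 0 in those intensities (largest difference 5.00e-06). The sources used here name no scanner, image software, normalization by the authors or genome build of the array, so no probe positions are printed. External control RNA was added before amplification, per the labels' protocols.

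In R 4.3.3 with limma 3.58.1, normexp (offset 50) served for background correction and loess within arrays, control spots at weight 0, for normalization, and ratios were turned to treated over time 0. A probe entered if either channel exceeded its background by 2 SDs on 4 or more arrays. The brightest probe stood for a gene (8 proteasome genes had several), and 1981 platform symbols were updated through the RefSeq table of GRCm38.p6. Calls given for the further probes of a gene come from a separate fit in which every kept probe was its own row. A single lmFit and eBayes fit held 4 group means and a dye term per gene, for 8 comparisons. Tests are two-sided, with Benjamini-Hochberg adjustment over 17484 genes. The median SE, which the number of arrays limits, was 0.0501 for groups and 0.0709 for differences between groups. The fit was tested on simulated data.

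Members, parts of the complex and other gene lists were chosen with earlier results of these data known. By rule the text gives values on each array for the catalytic subunits and for up to 4 highest and 4 lowest called genes of each comparison with 1 sign on 4 of 4 arrays, and names up to 4 genes of smallest adjusted p of each other list. For called genes printed by that rule, 1 sign on 4 of 4 arrays was a condition of the choice and not a result. Values on each array for further members, and further list genes, were added after their values were seen. Promoter windows from RefSeq were present for 39 of 47 genes. Alternatives were no background correction, median or external control centring, the deposited log2 values, 2 other filters on dim probes, the mean over probes, no dye term, a replicate block and leaving out each array.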

Additional observations from a re-analysis of the deposited data

Results flagged for a closer look

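On 7 of 188 sets of 4 arrays (1 gene in 1 group each), 1 array stood apart from the other 3. Chance alone sets about 1 in 20 apart where 4 values come from 1 normal distribution. Each set here mixes 2 arrays of either dye with the dye shift left in, so that rate need not hold. In FOXO4 cells at 8 h these were Psma1 in replicate 1 (0.13), Psma2 in replicate 3 (-0.12), Psmd6 in replicate 3 (-0.015), Psmd12 in replicate 3 (-0.17) and Psmg2 in replicate 2 (-0.24). In FOXO3 cells at 2 h they were Psmb2 in replicate 2 (-0.070) and Psmd13 in replicate 3 (-0.36). Of these 7 genes, Psmd12 was called in its group and lost that call under some settings.

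The response at 8 h differed between the FOXO3 and FOXO4 lines, by the test of the difference itself, for 11 genes. They made up 23.4% of the 47, where 10.6% of all genes were called. In the separate fit to genes above the control spots it was 27.7% of the 47, where 23.3% were called. Of the 11 calls, that of Psmg1 alone held under every setting and with any array left out. FOXO3 minus FOXO4 was 0.37 for the activator Psme4 and 0.29 for the ubiquitin receptor Psmd4. It was -0.43 for Psmg1, -0.37 for Psmg2, -0.29 for Psmg3 and -0.19 for Psmg4, the core assembly chaperones. It was -0.29 for Psmd7, -0.27 for Psmd3 and -0.18 for Psmd12 of the lid, -0.25 for the alpha subunit Psma4 and -0.24 for the immune subunit Psmb10.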

How the results depend on the processing

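Counts are given as proteasome genes called higher and lower. With external control centring, which rests on 1 detectable control RNA and put the median of all genes at -0.12 in FOXO4 cells at 8 h (-0.011 with loess) and at 0.10 in the line difference at 2 h (-0.00033 with loess), the counts were 0 and 1 (FOXO3 2 h), 4 and 20 (FOXO3 8 h), 0 and 4 (FOXO4 2 h), 1 and 11 (FOXO4 8 h), and 1 and 1 (FOXO4 8 h against 2 h). There were 10 genes lower at 8 h than at 2 h in FOXO3 cells, and 0 and 1 between the lines at 8 h. Median centring gave 0 and 2 (FOXO3 2 h), 6 and 20 (FOXO3 8 h), 0 and 2 (FOXO4 2 h) and 6 and 8 (FOXO4 8 h). It gave 4 and 11 (FOXO3 8 h against 2 h), 2 and 1 (FOXO4 8 h against 2 h), and 0 and 7 between the lines at 8 h. Without the dye term the counts were 0 and 1 (FOXO3 2 h), 5 and 17 (FOXO3 8 h), 0 and 0 (FOXO4 2 h) and 1 and 7 (FOXO4 8 h). They were 2 and 10 (FOXO3 8 h against 2 h), 1 and 1 (FOXO4 8 h against 2 h), and 0 and 3 between the lines at 8 h. The dye then adds to the spread within groups. The authors' values gave 0 higher for FOXO3 2 h and 7 lower for FOXO4 8 h against 2 h. For FOXO3 2 h, no background correction gave 0 higher and the filter at the control spots 2 higher. The mean of all probes gave 1 higher for FOXO4 2 h, and turned Ubqln1 in FOXO4 cells at 8 h to 0.019 (adjusted p = 0.876 with limma), against -0.15 with the brightest probe; the cause was not tested. Calls of list genes outside the Psm family were put through the alternatives by a choice made after seeing the data. Between the lines at 2 h, 0 genes were called under every setting.

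With 1 of the 16 arrays left out, the ranges were 0 to 1 and 1 to 3 (FOXO3 2 h), 6 to 9 and 19 to 21 (FOXO3 8 h), 0 to 2 and 2 to 4 (FOXO4 2 h), 4 to 6 and 9 to 14 (FOXO4 8 h), 4 to 5 and 12 to 17 (FOXO3 8 h against 2 h), 2 and 3 to 5 (FOXO4 8 h against 2 h), and 0 to 3 and 5 to 10 (between the lines at 8 h). FOXO3 2 h had 1 gene lower without its replicate 2, and its 1 higher gene, Psmd1, was lost without any of 11 arrays. FOXO4 2 h had 0 higher without its replicate 2 or 4, and 2 lower without its replicate 1, 2 or 3. FOXO4 8 h had 9 lower without its replicate 3 or 4. Between the lines at 8 h, 5 were lower without FOXO3 8 h replicate 1 or FOXO4 8 h replicate 3; 0 were higher without replicate 3 of either group, and 1 without FOXO3 8 h replicate 1 or 4 or FOXO4 8 h replicate 2 or 4. Under every setting and with any array left out, 4 of 9 higher and 16 of 20 lower calls held in FOXO3 cells at 8 h, 1 of 5 and 7 of 14 in FOXO4 cells at 8 h, and between the lines the call of Psmg1 alone.

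The data do not show that replicate numbers pair the samples. Deviations of same-numbered 2 h and 8 h arrays correlated at -0.39 to 0.17 in FOXO3 cells and -0.01 to 0.08 in FOXO4 cells. For arrays of different number and the same dye it was -0.20 to 0.42 and 0.03 to 0.16. With 4 arrays a group, these correlations cannot show that the samples were unpaired. With the replicate block, 8 h against 2 h gave 4 higher and 18 lower in FOXO3 cells and 2 and 4 in FOXO4 cells; as a random block it gave 4 and 16, and 2 and 5. Precision is limited by 4 arrays a group and by signals near background: Psmd9 was dim on most arrays.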
